A study of Homo sapiens with 8 samples.

Results

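Epithelial-mesenchymal transition (EMT) is the programme by which epithelial cells give up their junctions and take on a migratory, mesenchymal form. The genes described here are 8 in number, its transcription factors (SNAI1, SNAI2, TWIST1, ZEB1 and ZEB2) and its usual markers (VIM, CDH1 and CDH2). They were chosen because SNAI2 stood out for a large fall in cells without XRN1, and the question was whether the other EMT genes followed it. The count table held 5 of the 8, SNAI2, TWIST1, ZEB1, VIM and CDH2, among its 10105 genes. SNAI1, ZEB2 and CDH1 had no row in this table, so their mRNA and RPF levels were not analysed here.

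The study compared HEK293T cells, an established human embryonic kidney line, in their wild-type (WT) form with an XRN1-null form made by CRISPR/Cas9 editing. XRN1 is the main cytoplasmic nuclease that degrades decapped mRNA from its 5′ end. Each genotype was harvested 24 h after plating, without further treatment, and was profiled by RNA-Seq, which measures mRNA, and by Ribo-Seq, which counts ribosome-protected fragments (RPF), giving 8 libraries with 2 replicates per group. The XRN1-null data come from 1 edited line, so the loss of XRN1 and any other property of that line cannot be told apart.

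Members of the Snail, Twist and ZEB families bind short E-box sequences in DNA, and the Snail and ZEB proteins are best known as repressors of CDH1, which encodes the epithelial cadherin (E-cadherin). During EMT the epithelial cadherin is typically replaced by the neural cadherin (N-cadherin), encoded by CDH2, and vimentin, the intermediate filament protein encoded by VIM, becomes abundant. ZEB1 is also a classic target of the miR-200 family of microRNAs, which pair with its 3′ UTR and lower its output.

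RNA-Seq libraries held 33757487 to 38145433 counts and Ribo-Seq libraries 1921641 to 4399542. Levels are given as CPM, counts per 1 M of the TMM-scaled library total, and a log2 fold change is that of XRN1-null over WT cells. Genes were called at an FDR below 0.005 by the edgeR quasi-likelihood F test, Benjamini-Hochberg adjusted over the 10105 genes. XRN1 itself was examined as a check of the labels. It had 1187 and 1084 RNA-Seq counts in WT libraries against 10655 and 9834 without XRN1, whereas in Ribo-Seq, at 66 and 217 against 91 and 59 counts, its CPM were lower in each XRN1-null library (log2 fold change −1.08, standard error 0.201). The rise in its mRNA was called (log2 fold change 3.01), and the lower RPF missed the threshold (FDR = 0.00641 from the edgeR quasi-likelihood F test, Benjamini-Hochberg adjusted). The ratio of its RPF to its mRNA fell by 4.09 on the log2 scale (FDR = 1.66e-06 from the same test of the interaction). Of 11 genes that mark the neural and kidney character of HEK293 cells, 7 were in the table, with 388 to 454 summed mRNA CPM in WT and 342 to 352 in XRN1-null libraries. None of the 10 markers of differentiated epithelium and none of the 10 of blood and endothelium was in the table, and of 10 fibroblast markers only COL1A1 was.

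SNAI2, which encodes Slug, lies at chr8:49830157-49834299 on the minus strand (GRCh37). Its mRNA stood at 35.7 and 34.7 CPM in the WT libraries and at 1.90 and 2.21 CPM in the XRN1-null libraries, from 1266 and 1139 against 72 and 86 counts. Its footprints stood at 20.3 and 20.2 CPM in WT and at 0.993 and 1.25 CPM in the XRN1-null line, from 39 and 88 against 4 and 4 counts. In both assays the XRN1-null libraries were far below the WT libraries, and the replicates of each genotype lay close together.

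The mean mRNA level of SNAI2 was 35.2 ± 0.752 CPM (SD, n = 2) in WT and 2.06 ± 0.216 CPM (SD, n = 2) in XRN1-null cells, so that 5.84% of the WT level was left. The fitted log2 fold change of the mRNA was −4.09 (standard error 0.111, 95% interval −4.35 to −3.84), the fifth lowest of all genes, and leaving out any library kept it from −4.21 to −3.99. In RPF 5.53% of the WT level was left, and the log2 fold change of −4.15 (standard error 0.341, 95% interval −4.89 to −3.40) was the third lowest. Taken pair by pair, a WT library held 15.7 to 18.8 times the mRNA CPM of an XRN1-null library and 16.2 to 20.5 times the RPF CPM. These values chose the gene for description and carry no test. The authors kept genes above a minimum level, and the XRN1-null level alone, 0.975 ± 0.103 CPM per kb (SD, n = 2), would rank 10071 of the 10105 genes in mRNA. In bulk samples such as these, fewer cells that express a gene and less of its mRNA per cell cannot be told apart.

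**Figure D1:**
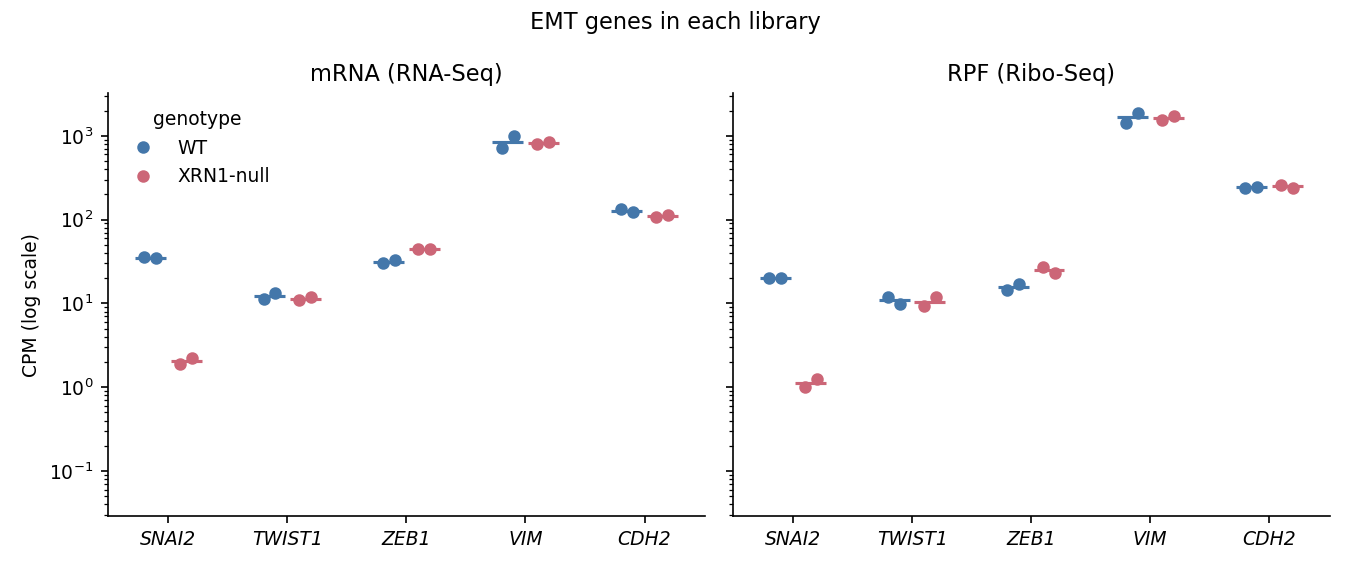
CPM of the 5 EMT genes in each library (points; log axis) and their group means (bars), for mRNA on the left and RPF on the right. SNAI2 stands near 35 CPM of mRNA in WT and near 2 CPM in the XRN1-null line, and for ZEB1 the XRN1-null points lie above the WT points in both assays, while those of TWIST1 and VIM overlap.

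TWIST1, a basic helix-loop-helix factor, was not called in either assay. Its mRNA measured 11.2 and 13.3 CPM in the WT and 10.996 and 11.8 CPM in the XRN1-null libraries, so that the genotypes overlapped. In Ribo-Seq it had 12.0 and 9.88 CPM in WT and 9.19 and 11.9 CPM in the XRN1-null line, which again overlapped. The log2 fold change of TWIST1 mRNA was −0.11 (standard error 0.114, 95% interval −0.37 to 0.16, FDR = 0.440 from the edgeR quasi-likelihood F test, Benjamini-Hochberg adjusted). That of its RPF was −0.03 (standard error 0.261, 95% interval −0.59 to 0.54, FDR = 0.956 from the same test). Both intervals lie far above the values of SNAI2 but do not exclude a small change. TWIST1 spans chr7:19060614-19157259 on the minus strand (GRCh37).

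ZEB1, a zinc-finger homeobox repressor at chr10:31607424-31818742 on the plus strand (GRCh37), moved the other way. Its mRNA measured 30.2 and 32.5 CPM in WT and 44.8 and 45.0 CPM in the XRN1-null line, from 1070 and 1068 against 1694 and 1750 counts. Its RPF measured 14.6 and 17.0 CPM in WT and 27.3 and 22.8 CPM in the XRN1-null line, from 28 and 74 against 110 and 73 counts. Every XRN1-null library was above every WT library in both assays.

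ZEB1 mRNA rose 1.43-fold, a log2 fold change of 0.52 (standard error 0.0707, 95% interval 0.35 to 0.68, FDR = 0.000492 from the edgeR quasi-likelihood F test, Benjamini-Hochberg adjusted). It remained past the threshold under each of the 11 alternative settings, with log2 fold changes from 0.48 to 0.57 and an FDR of at most 0.00401. In RPF the log2 fold change was 0.64 (standard error 0.198, 95% interval 0.21 to 1.07), which missed the threshold with an FDR of 0.0476 from the same test. ZEB1 was thus the only tested EMT gene called in mRNA, 1 of 4, where 22.9% of all genes were called higher and 46.1% in either direction. A rise of this size was common, as the change ranked 1772 from the top among 10105 genes. In RPF none of the 4 was called, against 1.77% of all genes, and none by DESeq2 or edgeR's likelihood ratio test. An unadjusted p below 0.05 in RPF was found for 1 of the 4 and for 3336 of all 10105 genes.

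Because ZEB1 was the EMT gene that rose and is the best-known target of the miR-200 family, the mature microRNAs (RefSeq, GRCh38.p14) are shown with their seed, bases 2 to 8, in capitals. The 5 family members fall into 2 groups by shared seed.
hsa-miR-200b-3p: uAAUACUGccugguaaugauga
hsa-miR-200c-3p: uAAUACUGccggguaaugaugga
hsa-miR-429: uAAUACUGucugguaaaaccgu
hsa-miR-200a-3p: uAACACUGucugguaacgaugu
hsa-miR-141-3p: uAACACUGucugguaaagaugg

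An mRNA pairs with the first group through CAGTATT and with the second through CAGTGTT. On the transcribed strand, the 3′ UTR of the reference ZEB1 transcript (2540 nt) held 6 matches to the first and 3 to the second. CAGTATT occurred at least once in 16.3% of the 19085 annotated 3′ UTRs of protein-coding genes and CAGTGTT in 18.3%. These shares cover UTRs of every length, so they are no measure of how unusual the number of matches in ZEB1 is. SNAI2 had 1 match to CAGTATT in 1209 nt and none to CAGTGTT, and the 3′ UTRs of TWIST1, VIM and CDH2 held neither. A match is a string of letters and not a measured site, and the microRNAs themselves were not measured here. The match nearest to the stop codon of ZEB1 in each seed group is given below, with the matched letters in capitals, from chr10:31816550-31816579 (369 nt after the stop codon) and chr10:31816963-31816992 (782 nt after it), both on the plus strand of GRCh37.
ZEB1, CAGTATT: ttttatcttatCAGTATTatcactcttatg
ZEB1, CAGTGTT: atcatcagaatCAGTGTTtgtgattgtgtt

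Snail and ZEB proteins bind the E-box CACCTG, which reads CAGGTG on the other strand. Promoter windows of 250 bases before to 50 bases after a transcription start (RefSeq, GRCh38.p14) were available for ZEB1, ZEB2, VIM and CDH2. Of the 7 windows of ZEB1, the third held 3 such E-boxes, the first held 1 and the others held none. The windows of VIM, CDH2 and ZEB2 held none, against 20.6% of all 35116 windows with at least 1. In the third ZEB1 window (chr10:31318966-31319265, plus strand), printed because it is the richest in the E-box among the windows of these genes, the letters in capitals begin 242 and 85 bases before the start and 33 bases after it.
ZEB1 promoter: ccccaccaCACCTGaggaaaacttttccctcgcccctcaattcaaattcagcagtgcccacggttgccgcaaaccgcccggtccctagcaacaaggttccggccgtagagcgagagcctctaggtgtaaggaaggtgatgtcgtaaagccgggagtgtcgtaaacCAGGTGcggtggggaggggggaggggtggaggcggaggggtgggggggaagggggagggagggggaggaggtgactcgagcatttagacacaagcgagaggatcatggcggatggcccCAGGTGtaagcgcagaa

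VIM, the most abundant of these genes per length, was not called between genotypes. VIM mRNA measured 721 and 990 CPM in WT and 800 and 835 CPM in the XRN1-null line. Its RPF measured 1421 and 1889 CPM in WT and 1559 and 1715 CPM in the XRN1-null line. In both assays the XRN1-null libraries fell between the WT replicates, and WT replicate 2 was the highest.

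The log2 fold change of VIM was −0.07 in mRNA (standard error 0.132, 95% interval −0.37 to 0.24, FDR = 0.676 from the edgeR quasi-likelihood F test, Benjamini-Hochberg adjusted) and −0.02 in RPF (standard error 0.144, 95% interval −0.33 to 0.30, FDR = 0.945). The mRNA value rested on the WT replicates, since it was −0.26 and called lower without WT RNA-Seq replicate 1 (FDR = 3.58e-07 from the same test) and 0.18 and called higher without WT RNA-Seq replicate 2 (FDR = 8.25e-05). Over all 11 alternatives its FDR ranged from 3.58e-07 to 0.959. VIM lies at chr10:17270240-17279592 on the plus strand (GRCh37).

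CDH2 mRNA was below the WT values in each XRN1-null library but missed the threshold, and its footprints overlapped between genotypes. The mRNA measured 133 and 124 CPM in WT and 106 and 114 CPM in the XRN1-null line. In Ribo-Seq the values were 239 and 246 CPM in WT and 260 and 238 CPM in the XRN1-null line, with no order between the genotypes.

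The log2 fold change of CDH2 mRNA was −0.22 (standard error 0.0712, 95% interval −0.38 to −0.05), and its FDR of 0.0280 from the edgeR quasi-likelihood F test, Benjamini-Hochberg adjusted missed the threshold. Without WT RNA-Seq replicate 2 the value was −0.27 and passed it (FDR = 3.70e-05), and over all alternatives the FDR ranged from 3.70e-05 to 0.312. The RPF log2 fold change was 0.04 (standard error 0.136, 95% interval −0.26 to 0.34, FDR = 0.862). CDH2 spans chr18:25512843-25757910 on the minus strand (GRCh37). Among the 4 tested genes the genotypes did not overlap in mRNA for ZEB1 (higher) and CDH2 (lower), 2 of 4, where 84.7% of all genes did not overlap, 41.0% higher and 43.7% lower. In RPF this held for ZEB1 alone, 1 of 4, against 64.4% of all genes, 32.1% higher and 32.3% lower.

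Each of the 5 genes overlapped a non-coding gene on the opposite strand in the annotation, such as ZEB1-AS1 and VIM-AS1. CDH2 also shared its own strand with a long non-coding RNA and ZEB1 with the pseudogene SPTLC1P1. The sources used here do not say whether reads were counted by strand, so reads from these neighbours cannot be told apart from those of the genes named.

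**Figure D2:**
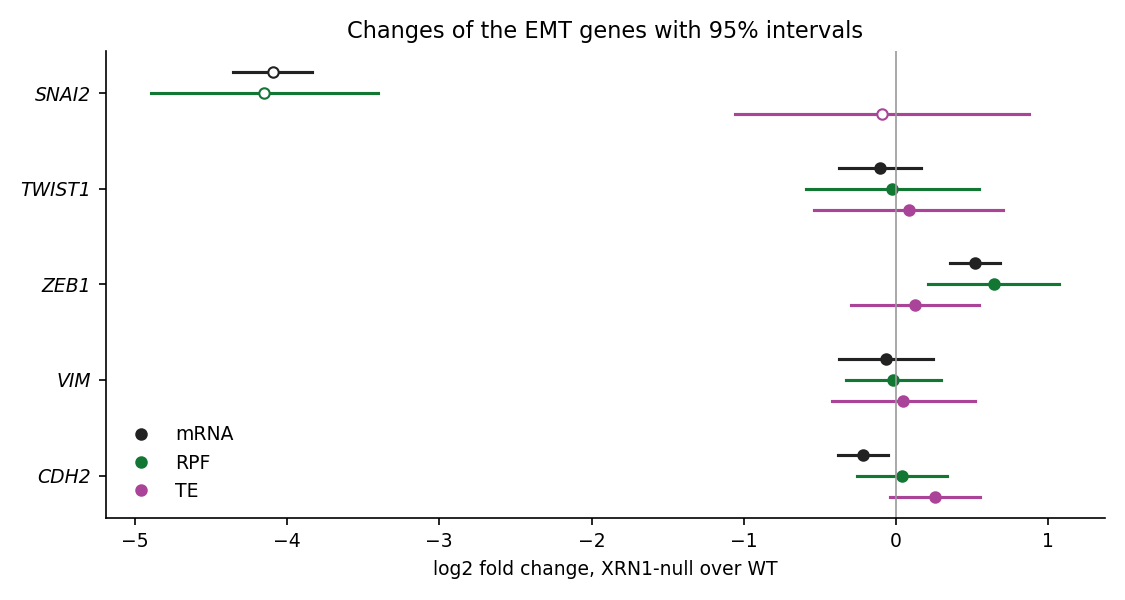
Log2 fold change of XRN1-null over WT cells (horizontal axis) for each EMT gene, in mRNA, RPF and TE, with 95% intervals as lines; open circles mark SNAI2, which was chosen on these values and not tested. Only SNAI2 lies near −4 in mRNA and RPF, the ZEB1 intervals for mRNA and RPF lie above 0, and all TE intervals include 0.

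The translational efficiency (TE), the ratio of RPF CPM to mRNA CPM, relates footprints to the mRNA available. For SNAI2 the TE was 0.568 and 0.583 in the WT replicates and 0.522 and 0.565 in the XRN1-null replicates. The ratio was thus of similar size in all 4 pairs, although mRNA and RPF were both many times lower in XRN1-null cells. The log2 change of its TE was −0.09 with a wide 95% interval, −1.06 to 0.87, because it rests on 4 footprints in each XRN1-null library.

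The TE of ZEB1 was also below the median of all genes, at 0.503 ± 0.0282 (SD, n = 2) in WT and 0.558 ± 0.0729 (SD, n = 2) in XRN1-null cells, where the medians of all genes were 0.825 and 0.802. TWIST1 stood at 0.905 ± 0.228 and 0.922 ± 0.122 (n = 2 each, SD). The structural genes were above the median. VIM had a TE of 1.94 ± 0.0442 in WT and 2.00 ± 0.0731 in XRN1-null cells (n = 2 each, SD). CDH2 had one of 1.89 ± 0.134 and 2.27 ± 0.265 (n = 2 each, SD). Between genes this ratio also depends on the untranslated part of each mRNA, for which it was not corrected. The reference 3′ UTR and the gene width were 1209 and 2109 nt for SNAI2, 2540 and 6389 for ZEB1 and 706 and 1666 for TWIST1. They were 322 and 2136 nt for VIM and 1187 and 4451 for CDH2. The order of the genes by TE is thus not an order of how well each is translated.

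None of the 4 tested genes passed the threshold for TE, against 1.83% of all genes, 0.0495% higher and 1.78% lower. An unadjusted p below 0.05 was found for 2356 of all 10105 genes and for none of the 4. None of the 4 was called by DESeq2 or the likelihood ratio test. The largest TE difference among them was that of CDH2, with a log2 change of 0.26 (standard error 0.137, 95% interval −0.04 to 0.55, FDR = 0.288 from the edgeR quasi-likelihood F test of the interaction, Benjamini-Hochberg adjusted). For ZEB1 the change was 0.12 (standard error 0.193, 95% interval −0.30 to 0.54, FDR = 0.753).

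Compared per length, as CPM per kb of the width that the authors give for each gene, VIM mRNA led in WT cells with 401 ± 88.9 (SD, n = 2), rank 148 of all genes. It was followed by CDH2 with 28.8 ± 1.41, SNAI2 with 16.7 ± 0.357, TWIST1 with 7.36 ± 0.865 and ZEB1 with 4.91 ± 0.255 (CPM of mRNA per kb, SD, n = 2 each). No 2 neighbours in this order overlapped in their replicates. In WT cells SNAI2 was therefore the factor with the highest mRNA level of the 3 that the table held.

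In XRN1-null cells the order of mRNA per kb was VIM with 383, CDH2 with 24.8, ZEB1 with 7.02, TWIST1 with 6.83 and SNAI2 with 0.975. ZEB1 (7.01 and 7.04) and TWIST1 (6.60 and 7.06) did not differ beyond their spread. SNAI2 dropped from rank 4693 of all genes to rank 10071. In RPF per kb the order in WT cells was the same as in mRNA, from 775 for VIM to 2.47 for ZEB1. In XRN1-null cells TWIST1 (6.32 CPM of RPF per kb) lay above ZEB1 (3.92), with no overlap between their replicates, and SNAI2 (0.531) came last. The width is not that of the coding part alone, so the order in RPF per kb also depends on untranslated length. The reference 3′ UTR had 2540 nt for ZEB1 and 706 nt for TWIST1.

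Summed over SNAI2, TWIST1 and ZEB1, the mRNA of the 3 factors amounted to 28.4 and 29.5 CPM per kb in the WT libraries and to 14.5 and 15.1 in the XRN1-null libraries. SNAI2 made up 59.6 and 55.7% of this sum in WT and 6.22 and 6.92% in the XRN1-null line. ZEB1 made up 16.6 and 17.3% in WT and 48.3 and 46.5% in the XRN1-null line. The share of TWIST1, whose own mRNA change was not called (log2 fold change −0.11), was 23.7 and 27.0% in WT and 45.5 and 46.6% in the XRN1-null line. Shares of a sum move together, so the lower SNAI2 mRNA alone raises the shares of both other factors. In footprints the share of SNAI2 was 50.4 and 52.7% in WT and 4.59 and 5.25% in the XRN1-null line. These shares restate the levels above and carry no test.

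**Figure D3:**
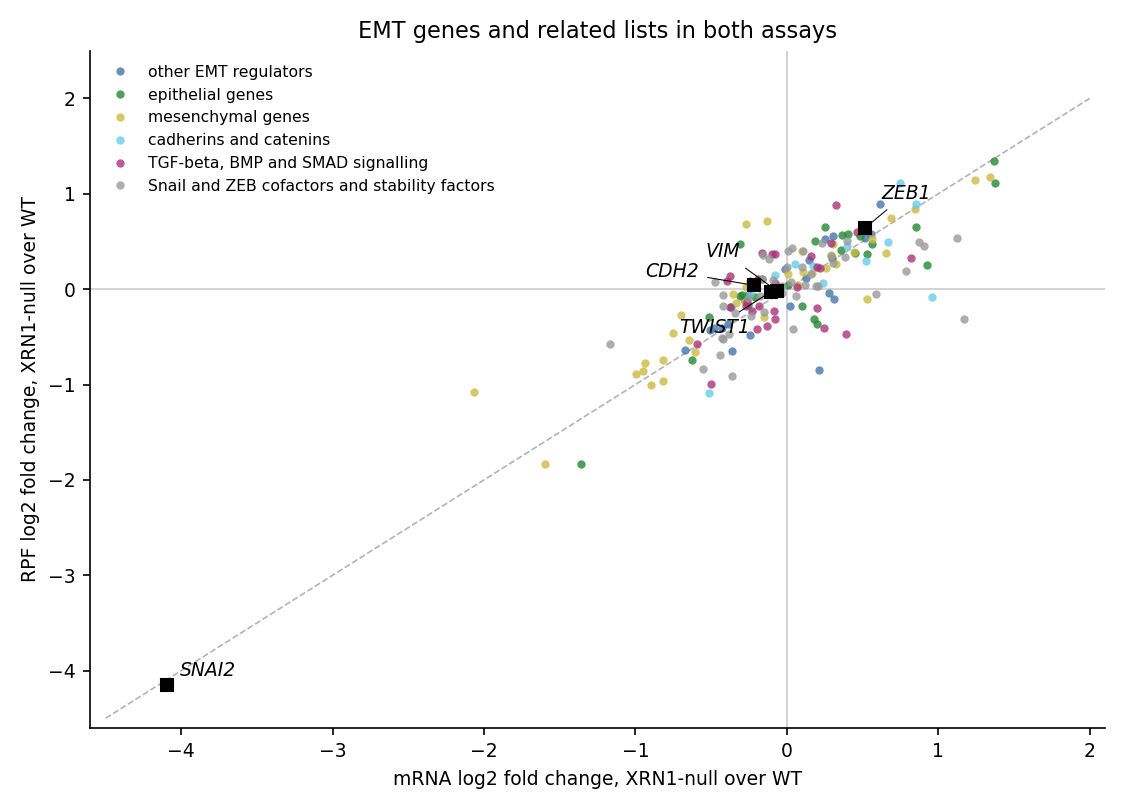
Log2 fold change in mRNA (horizontal axis) against that in RPF (vertical axis) for the 5 EMT genes (black squares) and the genes of 6 related lists (coloured points); the dashed line marks equal changes. SNAI2 lies alone at −4.09 and −4.15, and the lists spread to both sides of 0, from −2.07 to 1.38 in mRNA.

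Genes around the EMT factors were described through 6 lists with 174 genes in the table. Over all lists 35 genes were called higher and 36 lower in mRNA, 20.1% and 20.7%, near the 22.9% and 23.2% of all genes, and the median log2 fold change was 0.01 against −0.01 for all genes. In RPF 1 was called higher and 5 lower, 0.575% and 2.87%, where 0.633% and 1.14% of all genes were. In TE 0 were called higher and 1 lower, 0% and 0.575%, where 0.0495% and 1.78% of all genes were. DESeq2 gave 0 higher and 2 lower in TE. An unadjusted p below 0.05 in TE was found for 28 of the 174 and for 2356 of all 10105 genes. Pooled, the lists thus lay near all genes in mRNA, while the shares differed from list to list, as given below. Their lowest log2 fold change, −2.07 for ACTA2, was well above that of SNAI2.

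Of 30 other EMT regulators, 22 were in the table, of which 3 rose and 6 fell in mRNA, 13.6% and 27.3% against 22.9% and 23.2% of all genes, with a median log2 fold change of 0.00. TCF4 and TCF12, helix-loop-helix partners of TWIST1, and the forkhead factor FOXC1 rose, whereas TCF3, of the same E-protein family as TCF4 and TCF12, had a log2 fold change of −0.24 that was not called; TCF12 and TCF3 were named after their values were seen. For TCF4 the mRNA went from 24.0 ± 0.537 to 36.8 ± 0.639 CPM (n = 2 each, SD), a log2 fold change of 0.61 (FDR = 0.000232 from the edgeR quasi-likelihood F test, Benjamini-Hochberg adjusted), with 0.90 in RPF (FDR = 0.00887). FOXC1 mRNA rose by a log2 fold change of 0.56 (FDR = 0.000423), a call lost without XRN1-null RNA-Seq replicate 2 (FDR = 0.00584, and 1.00e-12 to 0.00584 over its alternatives).

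Among the regulators that fell were ID2, ID3 and ID4, which bind helix-loop-helix factors and keep them from DNA, with mRNA log2 fold changes of −0.37, −0.39 and −0.43, while the value of −0.16 for ID1 was not called; these 4 were named after their values were seen. SIX2, a homeobox factor of the nephron progenitor, went from 75.9 ± 2.81 to 47.7 ± 0.0142 CPM (n = 2 each, SD; log2 fold change −0.67). LEF1, a nuclear effector of Wnt signalling, had a log2 fold change of −0.51, which lost its call without XRN1-null RNA-Seq replicate 2 (FDR = 0.00520, and 5.37e-10 to 0.00520 over its alternatives). HMGA2, also named after its values were seen, was the sixth. In RPF 0 of the 22 regulators were called, against 1.77% of all genes, 0 by DESeq2 and 2 higher by the likelihood ratio test. An unadjusted p below 0.05 in RPF was found for 11 of the 22 and for 3336 of all 10105 genes. In TE 0 of the 22 were called, against 1.83% of all genes, and 0 by either other test. An unadjusted p below 0.05 in TE was found for 1 of the 22 and for 2356 of all genes.

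The epithelial list had 28 of its 57 genes in the table, of which 9 rose and 4 fell in mRNA, 32.1% and 14.3% against 22.9% and 23.2% of all genes, with a median log2 fold change of 0.19. GRHL1, a grainyhead factor of epithelia, rose by a log2 fold change of 1.38 in mRNA from 6.74 ± 0.0548 CPM (SD, n = 2).

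MARVELD1, which belongs to a family of tetraspanning membrane proteins, fell from 93.7 ± 4.84 to 36.5 ± 0.203 CPM of mRNA (n = 2 each, SD), a log2 fold change of −1.36. In RPF its log2 fold change was −1.83, which missed the threshold narrowly. NECTIN2, an adhesion receptor of adherens junctions, fell by 0.63 on the log2 scale in mRNA.

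The mesenchymal list had 37 of its 60 genes in the table, of which 8 rose and 14 fell in mRNA, 21.6% and 37.8% against 22.9% and 23.2% of all genes, with a median log2 fold change of −0.13. All 5 of the genes called lower in RPF over the lists belonged to it, namely COL5A1, COL6A1, ACTA2, TAGLN2 and FSCN1, 13.5% of its genes against 1.14% of all genes. This count rested on both XRN1-null libraries, since 1 of the 5 (COL5A1) kept its call without XRN1-null Ribo-Seq replicate 1 and 2 (COL5A1 and ACTA2) without replicate 2. COL5A1, a chain of fibrillar collagen, fell from 23.6 ± 1.92 to 7.78 ± 0.0826 CPM in mRNA (n = 2 each, SD; log2 fold change −1.60) and by a log2 fold change of −1.83 in RPF (FDR = 0.00220 from the edgeR quasi-likelihood F test, Benjamini-Hochberg adjusted). FSCN1, which bundles actin filaments, had log2 fold changes of −0.997 in mRNA and −0.891 in RPF. TAGLN2, an actin-binding protein, had −0.95 and −0.86, and COL6A1, a chain of collagen VI, had −0.82 and −0.96; these 3 were named after their values were seen.

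ACTA2, the smooth muscle actin, had the largest fall of mRNA in the lists, from 13.7 ± 2.39 to 3.27 ± 0.0844 CPM (n = 2 each, SD), with a log2 fold change of −2.07 in mRNA and −1.07 in RPF. Its RPF call was lost with DESeq2, with a minimum of 10 counts and without XRN1-null Ribo-Seq replicate 1, and near-identical actin genes can share its reads. Other mesenchymal genes rose. COL1A1 went from 14.6 ± 1.05 to 37.1 ± 0.321 CPM of mRNA (n = 2 each, SD; log2 fold change 1.34) and LGALS1, a galectin, from 7.44 ± 1.05 to 17.7 ± 1.96 (log2 fold change 1.25). COL1A1 is also the fibroblast marker of the table and 4 of the 7 markers of the HEK293 lineage fell, and the part of either in these counts was not tested.

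Of 44 cadherins and catenins other than CDH1 and CDH2, 12 were in the table, 5 higher and 1 lower in mRNA, 41.7% and 8.33% against 22.9% and 23.2% of all genes, with a median log2 fold change of 0.32. The 5 were AJUBA, MLLT4 (afadin), JUP (plakoglobin), LIMD1 and CTNND1 (p120 catenin), proteins of the inner face of the adherens junction or its partners, of which JUP, LIMD1 and CTNND1 were named after their values were seen. AJUBA mRNA rose from 14.4 ± 0.372 to 27.9 ± 2.22 CPM (n = 2 each, SD; log2 fold change 0.96), whereas its RPF log2 fold change was −0.08. MLLT4 rose by 0.86 in mRNA, with 0.89 in RPF (FDR = 0.00863). The 1 lower gene was CELSR2, an atypical cadherin of planar polarity, with a log2 fold change of −0.51 and an FDR of 0.00377 that rose above the threshold with RLE scaling (0.00527), with library totals (0.00761) and without XRN1-null RNA-Seq replicate 2 (0.0241), and ranged from 1.22e-10 to 0.0241 over its alternatives. In RPF 0 of the 12 were called, against 1.77% of all genes, 1 higher by DESeq2, and by the likelihood ratio test 2 higher and 1 lower. An unadjusted p below 0.05 in RPF was found for 5 of the 12 and for 3336 of all 10105 genes.

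TGF-beta signalling is a main inducer of EMT. Of its 42 listed ligands, receptors and SMAD factors, 29 were in the table, of which 3 rose and 1 fell in mRNA, 10.3% and 3.45% against 22.9% and 23.2% of all genes, with a median log2 fold change of −0.08. The ligand gene TGFB1 fell from 46.4 ± 3.24 to 30.8 ± 0.272 CPM (n = 2 each, SD; log2 fold change −0.59). SMAD4, the shared SMAD partner, rose from 45.1 ± 2.40 to 79.5 ± 2.14 CPM of mRNA (n = 2 each, SD; log2 fold change 0.82), with 0.33 in RPF. The BMP receptor gene BMPR2 rose by 0.46, a call lost without XRN1-null RNA-Seq replicate 1 (FDR = 0.0199, and 5.32e-09 to 0.0199 over its alternatives), and the third was LTBP3, a binding protein of latent TGF-beta, named after its values were seen. At an FDR of 0.05, 9 of the 29 were higher and 9 lower, and the likelihood ratio test at 0.005 gave 4 and 5. More of all genes were also called at these settings. The shares of this list were slightly below those of all genes at the FDR of 0.05. With the likelihood ratio test they were well below them. In RPF 0 of the 29 were called, against 1.77% of all genes, 0 by DESeq2 and 1 higher by the likelihood ratio test. An unadjusted p below 0.05 in RPF was found for 8 of the 29 and for 3336 of all 10105 genes.

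Proteins that act with Snail and ZEB factors on chromatin, or that set their stability, formed the last list, with 46 of 49 genes in the table, 7 higher and 10 lower in mRNA, 15.2% and 21.7% against 22.9% and 23.2% of all genes, and a median log2 fold change of −0.02. DNMT1, the maintenance DNA methyltransferase, went from 173 ± 31.4 to 376 ± 4.89 CPM of mRNA (n = 2 each, SD; log2 fold change 1.12), with 0.54 in RPF. The ubiquitin ligase genes SIAH1 and STUB1 fell in mRNA, with log2 fold changes of −1.17 and −0.55. In RPF 0 of the 46 were called, against 1.77% of all genes, 1 lower by DESeq2 and 3 lower by the likelihood ratio test. An unadjusted p below 0.05 in RPF was found for 15 of the 46 and for 3336 of all 10105 genes.

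ATM, a kinase of the DNA damage response that also phosphorylates Snail, was the one gene of the lists called in TE. Its mRNA measured 37.1 ± 0.216 CPM in WT and 83.4 ± 4.65 CPM in the XRN1-null line (n = 2 each, SD; log2 fold change 1.17), and its RPF 56.1 ± 1.24 and 45.4 ± 1.06 CPM (log2 fold change −0.31). The log2 change of its TE was −1.48 (FDR = 8.56e-05 from the edgeR quasi-likelihood F test of the interaction, Benjamini-Hochberg adjusted). Higher mRNA was thus not matched by more footprints for ATM.

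The genes whose values over the 8 libraries lay nearest to those of SNAI2 were found by the Euclidean distance between log2(CPM + 0.5) values centred within each assay. They were HBQ1, a globin gene (distance 1.19), LAMA1, a laminin chain (1.70), SPON1, a secreted matrix protein (2.03), KCNG1, a potassium channel subunit (2.28), and BASP1, a membrane-associated protein of neurons (2.40), where the median distance of all genes was 5.32. None of the 5 was in the EMT lists.

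LAMA1 had 1259 and 1096 mRNA counts in WT against 12 and 18 in XRN1-null cells, and 146 and 296 against 9 and 11 footprints. HBQ1 had 137 and 157 mRNA counts in WT against 0 and 3, and 9 and 16 against 1 and 0 footprints. SPON1 had a log2 fold change of −2.30 in mRNA and −2.57 in RPF, KCNG1 −1.95 and −2.77, and BASP1 −2.07 and −3.31. All 5 were thus far lower in XRN1-null cells in both assays, which the measure of likeness makes sure of. With 2 CPM added instead of 0.5, 3 of the 5 remained among the nearest.

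**Figure D4:**
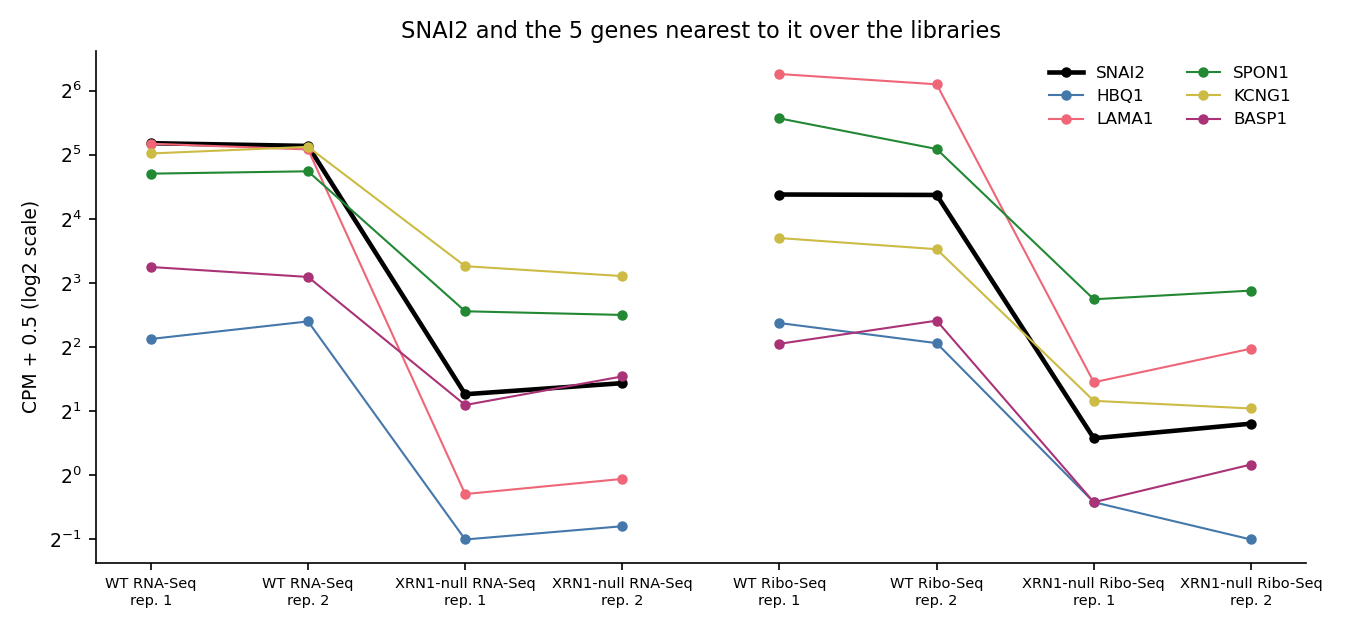
CPM + 0.5 (log2 axis) of SNAI2 (thick black line) and of the 5 genes nearest to it in each of the 8 libraries, RNA-Seq on the left and Ribo-Seq on the right; lines only join the points of a gene. All 6 genes drop between the WT and the XRN1-null libraries in both assays, LAMA1 further than SNAI2 in mRNA.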

How the data were processed

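HEK293T WT and XRN1-null cells were analysed by RNA-Seq and Ribo-Seq, 2 replicates each. The authors filtered rRNA reads (Bowtie2), aligned the rest to hg19 (TopHat2), selected footprints by codon periodicity, kept genes above an FPKM minimum and deposited raw counts per gene from QuasR; versions are not given in the sources used here. Their deposited fold changes, p-values and TE ratios from edgeR and RiboDiff were not used.

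From the counts, edgeR 4.0.16 (R 4.3.3) quasi-likelihood tests were run on all 10105 genes with TMM factors within each assay, for mRNA, RPF and, as the assay by genotype interaction, TE. The call was an FDR below 0.005, the level that the study uses. SNAI2 was not tested. The members and lists were chosen with earlier results of these data known. Genes named are the members, per list the 2 largest rises and falls called in mRNA (1 each in RPF and TE) that held in all 4 WT and XRN1-null pairs, the 5 genes nearest to SNAI2, and XRN1. Other list genes were named after their values were seen, as said beside them. For each log2 fold change the standard error is that change divided by the root of F. Positions and 3′ UTRs come from GENCODE release 44 on GRCh37. Of the genes this rule names, 1 is not reported here. Older symbols were matched (MLLT4 for AFDN, for example).

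Alternatives were RLE factors or library totals, DESeq2 1.42.0, the likelihood ratio test, a minimum of 10 counts, an FDR of 0.05, replicate blocks and leaving out each library. Same-numbered libraries share only a number in the labels, which do not say that they came from 1 culture. Replicates are described as biological, and differed by more than counting noise in every group. Counts were simulated for the 10105 genes with 100 genes changed by a log2 fold change of 1 and 100 by 2. The mRNA test recovered 99 and 100, the RPF test 74 and 99 and the TE test 60 and 98, with at most 2 false calls. The simulation gave all genes of an assay the same spread in both genotypes. In the data WT replicates differed more than XRN1-null replicates (chi-square per degree of freedom 24.0 against 3.83 in RNA-Seq, 7.72 against 2.01 in Ribo-Seq). The simulated rates thus need not hold for the data.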

Additional observations from a re-analysis of the deposited data

Results flagged for a closer look

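Among the genes named, XRN1 and ATM were picked out because their changes differed between the assays in a test of the difference itself. For XRN1, the edited gene, the log2 change of RPF minus that of mRNA was −4.09 (FDR = 1.66e-06 from the edgeR quasi-likelihood F test of the interaction, Benjamini-Hochberg adjusted). The mRNA of ATM was higher and its RPF were slightly lower in XRN1-null cells, and the log2 change of RPF minus that of mRNA was −1.48 (FDR = 8.56e-05 from the edgeR quasi-likelihood F test of the interaction, Benjamini-Hochberg adjusted). The value lay between −1.54 and −1.42 over 16 alternatives, with an FDR of at most 0.00474 in each. None of the tested EMT genes was picked out in this way, and groups of 2 libraries were too small for a check of outlying samples.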

How the results depend on the processing

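ZEB1 kept its direction in mRNA and RPF, and its mRNA call, under each alternative, and SNAI2 moved by more than its standard error once, to −4.21 in mRNA without XRN1-null RNA-Seq replicate 2. Of 988 alternative log2 fold changes of the tested named genes, 904 kept their side of the threshold, 74 newly passed it and 9 no longer did. In 45 the sign changed, 44 of them values that were not called and 1 a call, that of VIM mRNA (−0.26 without WT RNA-Seq replicate 1 and 0.18 without replicate 2). Of the 36 SNAI2 values, which were not tested, 2 changed sign, both in TE. At an FDR of 0.05, CDH2 was also called lower in mRNA (1 of 4) and ZEB1 higher in RPF (1 of 4). At that FDR, the RPF of 714 genes were higher and 847 lower and the TE of 103 higher and 653 lower. Over the lists 60 were then higher and 58 lower in mRNA, shares near those of all genes at the same FDR. The list counts were 16 and 17 in RPF, and 2 and 6 in TE. The likelihood ratio test gave 469 and 596 genes in RPF and 71 and 596 in TE, and in the lists 12 and 15 in RPF and 2 and 6 in TE. Library totals gave 133 genes higher in RPF, 3 of them in the lists. DESeq2 gave 322 genes lower in TE, 2 of them in the lists, and 2 list genes higher in RPF. With 2 CPM added, 3 of the nearest genes to SNAI2 remained. The causes were not tested.

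The replicate numbers show no shared culture in the labels. Deviations of same-numbered libraries correlated at 0.190 in RNA-Seq and 0.0803 in Ribo-Seq, and RNA-Seq with Ribo-Seq at 0.355 in WT and 0.0326 in XRN1-null cells. With the replicate block, mRNA calls moved to 2858 higher and 2805 lower and RPF calls to 616 and 665, with 15 and 14 in the lists. TE calls moved to 7 higher and 190 lower with it and to 55 and 435 with a culture block, with 2 and 2 in the lists. No tested EMT gene changed its call under a block.

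With each library left out in turn, where a lone library is assumed to vary like the others, mRNA calls ranged from 1632 to 3410 higher and 1097 to 3389 lower, RPF calls from 71 to 1282 and 72 to 1087, and TE calls from 0 to 9 and 19 to 230. Among the 4 tested EMT genes, mRNA calls ranged from 1 to 2 higher and 0 to 1 lower. In the lists they ranged from 23 to 55 higher and 18 to 56 lower in mRNA and from 3 to 33 and 1 to 24 in RPF. Depth limits the Ribo-Seq values, as SNAI2 had 4 footprints in each XRN1-null library and TWIST1 between 23 and 43 in any library.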
